A study of Mus musculus with 9 samples.

Results

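The 9 genes described here encode the chains of the interleukin-2 (IL-2) receptor (Il2ra, Il2rb and Il2rg), costimulatory and inhibitory receptors of T cells (Ctla4, Icos, Tnfrsf9 and Tnfrsf18) and products of effector T cells (Gzmb and Il12rb2). They were chosen by name, as genes of activated T cells, out of 19305 genes listed in either of the deposited tables. The samples were LLC1 cells, a mouse Lewis lung carcinoma line, kept for 24 h in contact with T cells generated in culture and labelled Th9 (3 libraries), Th17 (3 libraries) or Th0 (3 libraries), at equal numbers of T cells and LLC1 cells. No genotype, strain, dose or further agent is given for any group. CD4+ cells were sorted away after the co-culture, and the total RNA that was sequenced is that of the remaining cells, so T cell transcripts in these libraries come from cells that the sort left behind. The LLC1 line is a single tumour line, and all 3 groups hold LLC1 cells with T cells: no library of LLC1 cells alone was used here.

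The IL-2 receptor passes the growth signal of T cells. Il2ra (CD25) encodes the alpha chain that raises its affinity and that T cells switch on upon activation, Il2rb encodes the beta chain shared with the IL-15 receptor, and Il2rg encodes the common gamma chain shared by the receptors for IL-2, IL-4, IL-7, IL-9, IL-15 and IL-21. Costimulatory receptors add to or restrain the signal of the T cell receptor, and most of them appear on the surface only after activation. Granzyme B, the product of Gzmb, is a protease that cytotoxic lymphocytes deliver into target cells, and Il12rb2 encodes the signalling chain of the IL-12 receptor.

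The start-site regions of 3 members with large differences between Th9 and Th0 libraries, and that of Tnfrsf18, which did not pass the test there, show which short motifs of activation-induced factors lie in them. The sequences are from RefSeq on build GRCm38.p6, run from 250 bases before to 50 bases after an annotated start, and are read 5′ to 3′ on the gene's strand. Capitals mark matches, some of which overlap, to TTCNNNGAA (bound by STAT factors), TGANTCA (AP-1) and the NF-kB motif (GGG, any 5 bases and CC), where N is any base and both strands were searched.
Il2ra, chr2:11642542-11642841, plus strand: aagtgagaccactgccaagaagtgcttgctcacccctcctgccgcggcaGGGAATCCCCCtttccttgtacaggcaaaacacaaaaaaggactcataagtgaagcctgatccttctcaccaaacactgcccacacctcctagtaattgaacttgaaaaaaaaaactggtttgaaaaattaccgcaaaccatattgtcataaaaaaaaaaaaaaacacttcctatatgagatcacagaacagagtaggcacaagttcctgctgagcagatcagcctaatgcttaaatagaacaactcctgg
Tnfrsf9, chr4:150927749-150928048, plus strand: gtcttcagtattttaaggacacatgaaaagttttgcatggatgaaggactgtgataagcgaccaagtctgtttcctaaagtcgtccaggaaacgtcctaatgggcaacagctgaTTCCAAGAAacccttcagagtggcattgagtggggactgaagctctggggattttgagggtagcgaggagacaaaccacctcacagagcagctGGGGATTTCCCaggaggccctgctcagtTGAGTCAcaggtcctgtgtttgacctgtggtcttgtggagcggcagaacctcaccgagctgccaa
Gzmb, chr14:56262285-56262584, minus strand: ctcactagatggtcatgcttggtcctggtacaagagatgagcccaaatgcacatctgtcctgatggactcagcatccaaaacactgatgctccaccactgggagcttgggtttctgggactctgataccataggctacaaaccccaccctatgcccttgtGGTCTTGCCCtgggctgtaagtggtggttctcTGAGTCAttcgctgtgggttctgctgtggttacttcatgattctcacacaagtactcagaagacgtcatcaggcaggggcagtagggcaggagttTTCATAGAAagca
Tnfrsf18, chr4:156026072-156026371, plus strand: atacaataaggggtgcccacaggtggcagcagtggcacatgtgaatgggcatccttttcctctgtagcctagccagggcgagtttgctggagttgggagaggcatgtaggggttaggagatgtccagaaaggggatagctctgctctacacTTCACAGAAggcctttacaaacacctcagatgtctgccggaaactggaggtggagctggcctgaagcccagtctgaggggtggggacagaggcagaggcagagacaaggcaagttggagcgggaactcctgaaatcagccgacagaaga
Of the 9 members, 7 were matched in the RefSeq table, with 8 start sites because Tnfrsf9 has an additional one, and Il2rb and Icos were not. The Tnfrsf9 window printed above is the one with matches. The other Tnfrsf9 window, chr4:150919905-150920204, held no match to the STAT, AP-1 or NF-kB motif. The STAT motif lay in 4 of these 8 windows (Tnfrsf9, Tnfrsf18, Il12rb2 and Gzmb), against 8.3% of all 32851 promoters of the table, and the AP-1 motif lay in 2 (Tnfrsf9 and Gzmb), against 7.81%. The NF-kB motif lay in 4 (Il2ra, Tnfrsf9, Il12rb2 and Gzmb), against 50.8% of all promoters, and GGAAA, the core bound by NFAT factors, lay in 6, against 61.3%. The STAT match of Tnfrsf18, TTCACAGAA, began 99 bases before the start, and that of Gzmb, TTCATAGAA, lay 37 bases after it, so the motif was found both in a member that passed the test in Th9 libraries and in the one that did not. A match is a string of letters only, and no factor's binding was measured.

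The values are normalized read counts per gene, deposited as whole numbers in 2 tables of 6 libraries each, one with Th9 and Th0 and one with Th17 and Th0. The Th0 libraries stand in both tables, so the comparisons share their controls. Each library held between 12718971 and 17504907 reads, as recovered approximately from the values. Th0 replicate 1 stood apart from the others, with 31.1% of its normalized counts in mt-Rnr1, mt-Rnr2 and Gm26917, against 14.9% to 21.8% in every other library. The LLC1 label was checked on 8 genes. Vim (vimentin) was at 65637 to 68614 normalized counts in Th9, 77698 to 79383 in Th17 and 56024 to 81414 in Th0 libraries, and Krt8 and Krt18 (keratins) were at 956 or more in every library, while Col1a1 (type I collagen) was at 5 in each Th9 library, 12 to 14 in Th17 and 16 to 21 in Th0 libraries. Nothing in the labels says whether libraries of a group came from separate cultures, so the p-values reflect only how these samples vary, which may be technical variation.

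Th9 against Th0 asked how these transcripts differ in the presence of Th9 cells. Of the 9 members, 8 were higher in Th9 than in Th0 libraries and 1, Tnfrsf18, did not pass the test. By the group means, Il2ra was 66.3 times as high, Gzmb 32.6 times, Il2rb 25.4 times and Ctla4 24.7 times, Tnfrsf9 and Il2rg 12 and 11.3 times, and Il12rb2 3.43 times, while Icos was nearly absent from Th0 libraries. A call here is a Benjamini-Hochberg adjusted p under 0.05 in limma's test across all 14475 genes with a mean of at least 10, and 25.2% of these genes were called, 13.4% as higher and 11.9% as lower. The count of 8 is a description: 7 members had a mean under 10 in Th0 libraries and reached the mean of 10 only through their Th9 values. Fold changes below are on the log2(normalized count + 1) scale, with their standard error (SE), and understate the change of genes near 0. In bulk RNA, fewer T cells and less RNA per T cell cannot be told apart.

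**Figure D1:**
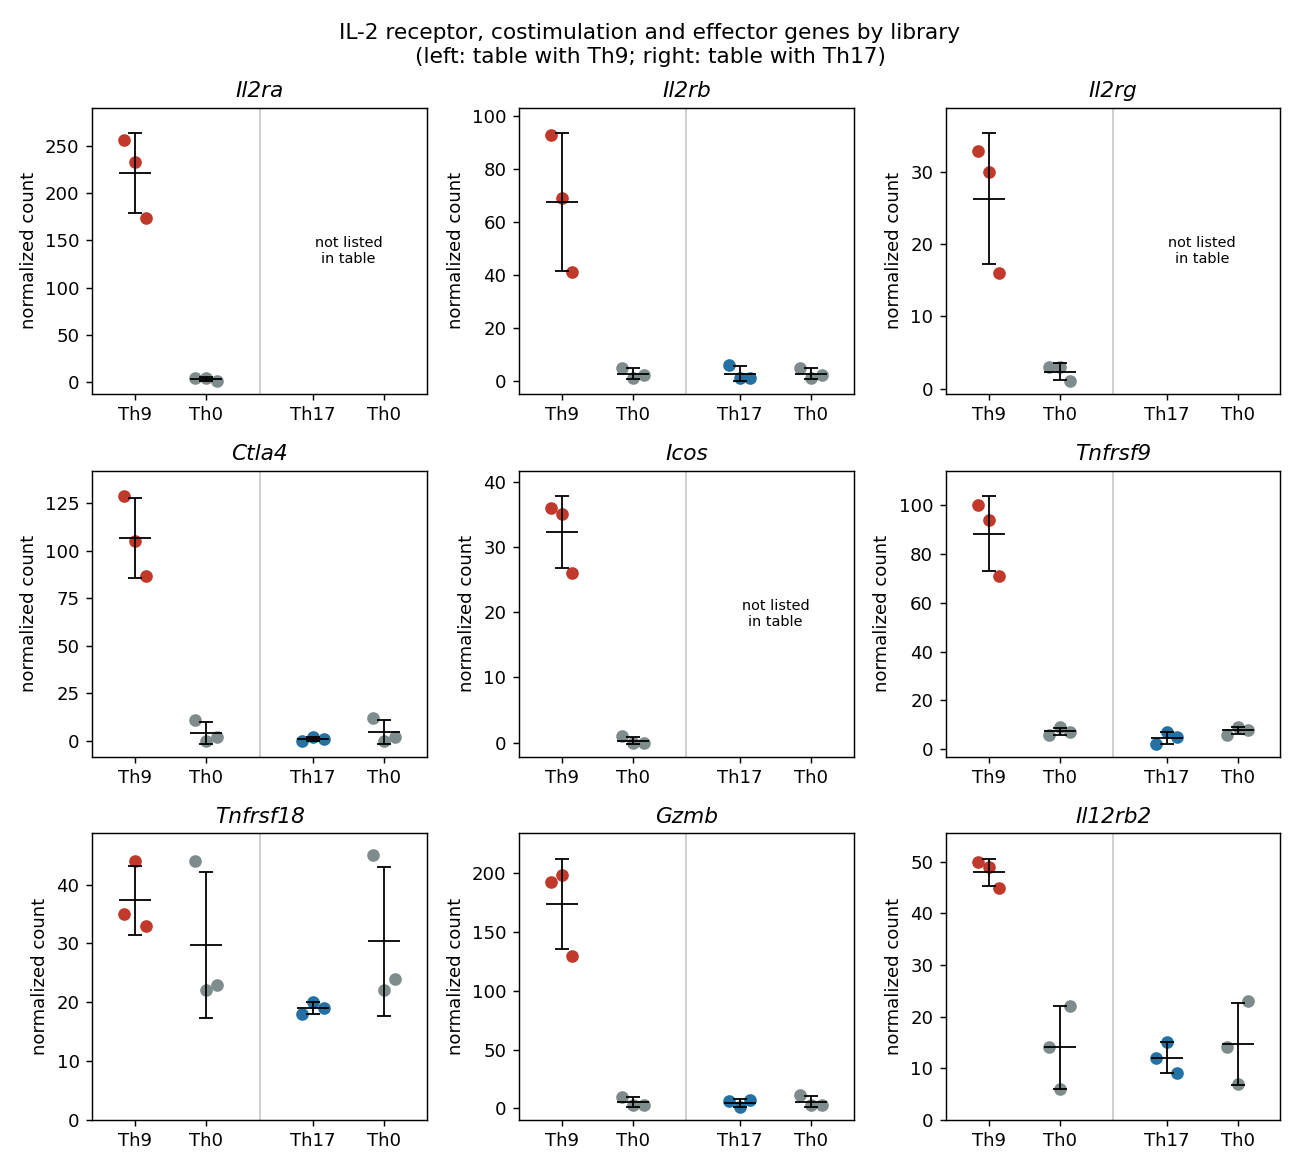
Normalized count (y axis, linear) of each of the 9 genes in every library, with Th9 and Th0 of one table on the left and Th17 and Th0 of the other on the right of each panel. Points are libraries, and the dash and bar are the mean and SD of 3 libraries. The Th9 libraries lie above all Th0 libraries for every gene but Tnfrsf18, and Il2ra, Il2rg and Icos are not listed in the table with Th17.

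Among the receptor chains, Il2ra (ENSMUSG00000026770, chr2:11642807-11693193, plus strand) had 256, 233 and 174 normalized counts in Th9 libraries, against 5, 4 and 1 in Th0 libraries. Its lowest Th9 library was far above its highest Th0 library, and its log2 fold change of 5.81 (SE 0.37, 95% interval 4.99 to 6.62, adjusted p = 8.8e-07) was the largest among the 9 genes. Il2rb (ENSMUSG00000068227, chr15:78480553-78495066, minus strand) had 93, 69 and 41 in Th9 libraries, against 5, 1 and 2 in Th0 libraries. Its groups did not overlap, and it changed by 4.30 on the log2 scale (SE 0.45, adjusted p = 3.7e-05). Il2rg (ENSMUSG00000031304, chrX:101264378-101268255, minus strand) had 33, 30 and 16 in Th9 libraries, against 3, 3 and 1 in Th0 libraries. The groups again stood apart, and the log2 fold change was 3.04 (SE 0.47, with an adjusted p = 5.6e-04). The 3 chains together summed to 231 to 382 normalized counts in Th9 libraries and to 4 to 13 in Th0 libraries, so all 3 components of the high-affinity receptor were detected with Th9 and each was close to 0 with Th0. Gm20489, a protein-coding gene on the same strand, overlaps Il2rg and is listed in neither table. Other genes on a member's own strand are Gm37881 over Il2ra, at 4 ± 2.65 in Th9 and 0 in each Th0 library (SD, n = 3), Gm37039 over Icos, at 6.67 ± 2.08 in Th9 and 0 in each Th0 library, and Rpl18-ps1, a pseudogene over Ctla4, at 12 ± 10.5 in Th9 and 9.67 ± 3.51 in Th0 libraries (log2 fold change -0.11, adjusted p = 0.927). How reads shared by such genes were assigned is not given in the sources used here.

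Among the costimulatory and inhibitory receptors, Ctla4 (ENSMUSG00000026011, chr1:60887000-60915832, plus strand), an inhibitory receptor that competes with Cd28 for its ligands, had 129, 105 and 87 normalized counts in Th9 libraries, against 11, 0 and 2 in Th0 libraries. All Th9 libraries were above all Th0 libraries, although the Th0 libraries themselves differed widely, and the log2 fold change was 5.01 (SE 0.66, adjusted p = 2.0e-04). Icos (ENSMUSG00000026009, chr1:60977927-61000320, plus strand), an inducible costimulator of the same family and a neighbour of Ctla4, had 36, 35 and 26 in Th9 libraries, against 1, 0 and 0 in Th0 libraries. Icos rested on a single Th0 read, so the ratio of its reads, 94.2, has a 95% counting interval of 16.5 to 3757, and the fitted log2 fold change of 4.71 (SE 0.50, adjusted p = 4.0e-05) depends on the added 1. A value of 0 allows up to 3 reads in that library, by counting error alone.

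Tnfrsf9 (4-1BB; ENSMUSG00000028965, chr4:150914562-150946102, plus strand), a costimulatory receptor of the TNF receptor family that activation switches on, had 100, 94 and 71 normalized counts in Th9 libraries, against 6, 9 and 7 in Th0 libraries. The groups were narrow and far apart, at 3.42 on the log2 scale (SE 0.27, adjusted p = 3.6e-06). Tnfrsf18 (GITR; ENSMUSG00000041954, chr4:156026164-156028895, plus strand), another receptor of that family that is high on regulatory T cells, had 35, 44 and 33 in Th9 libraries, against 44, 22 and 23 in Th0 libraries. Here Th0 replicate 1 equalled the highest Th9 library and the other Th0 libraries lay below all of them. The log2 fold change was 0.38 (SE 0.29, 95% interval -0.25 to 1.01, adjusted p = 0.367). Without Th0 replicate 1, the library that stands apart, Tnfrsf18 passed the test at a log2 fold change of 0.70 (adjusted p = 0.0388), and it also passed when limma weighted libraries by their quality (0.64, adjusted p = 0.0215).

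The effector genes were both higher with Th9. Gzmb (ENSMUSG00000015437, chr14:56258856-56262260, minus strand) had 193, 199 and 130 normalized counts in Th9 libraries, against 10, 3 and 3 in Th0 libraries. Its groups did not overlap, and its log2 fold change was 4.94 (SE 0.37, adjusted p = 2.8e-06). Il12rb2 (ENSMUSG00000018341, chr6:67291318-67376188, minus strand) had 50, 49 and 45 in Th9 libraries, against 14, 6 and 22 in Th0 libraries. This was the smallest of the 8 called differences, at 1.87 (SE 0.38, adjusted p = 0.00357), with the Th9 libraries close to each other and the Th0 libraries spread out.

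**Figure D2:**
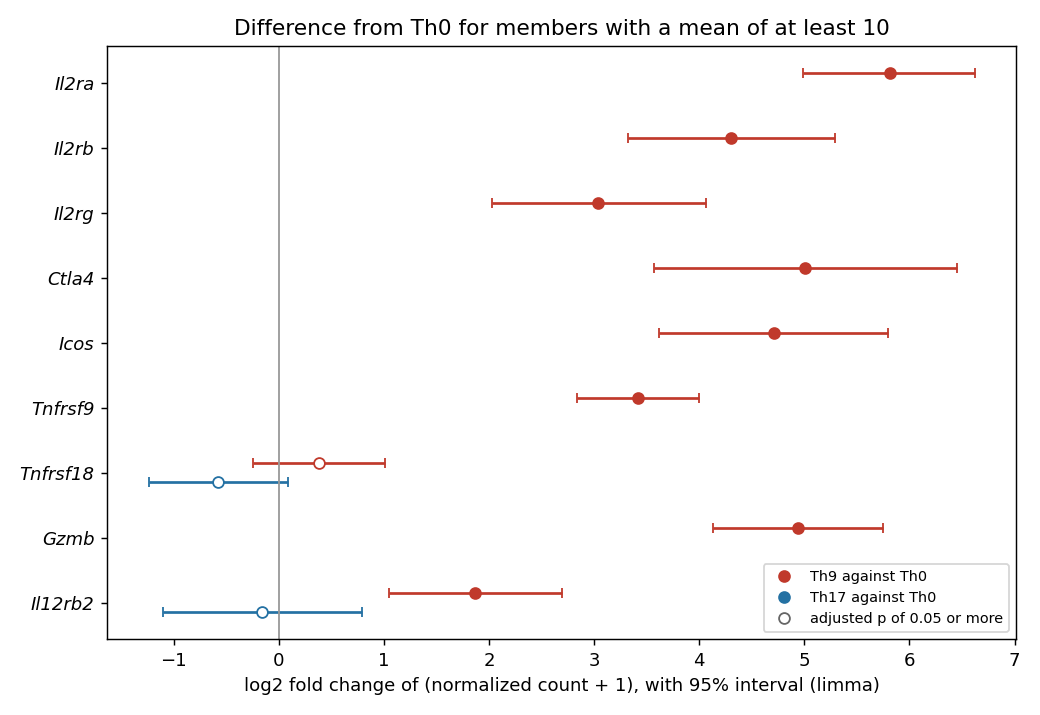
Log2 fold change of (normalized count + 1) against Th0 (x axis) with limma's 95% interval for each member with a mean of at least 10, Th9 in red above Th17 in blue. Filled points had an adjusted p under 0.05: 8 of 9 members with Th9, from 1.87 for Il12rb2 to 5.81 for Il2ra, and neither of the 2 members tested with Th17.

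Each of the 8 called members stayed called when any single Th9 or Th0 library was left out, with the highest such adjusted p of 0.0226 for Il12rb2. In all 8 the Th9 libraries lay above all Th0 libraries, against 21.4% of all genes tested that were higher with no overlap. This is a description only, as these 8 were picked by being called higher. Within the Th9 group, replicate 3 was the lowest library for all 9 members, and it was the lowest for 16 of the 20 T cell identity genes described below. Within the Th0 group, replicate 1 was the highest for 6 of the 9 members and for 15 of those 20 genes. Genes that overlap members on the opposite strand did not pass the test: Serbp1, over Il12rb2, averaged 10704 ± 793 in Th9 and 11963 ± 250 in Th0 libraries (SD, n = 3 each; log2 fold change -0.16, adjusted p = 0.279), and Camta1, over Tnfrsf9, averaged 146 ± 13.3 in Th9 and 147 ± 26.5 in Th0 libraries (0.00, adjusted p = 0.985). Gm16008, antisense to Tnfrsf18, averaged 15.7 ± 4.62 in Th9 and 16.0 ± 5.20 in Th0 libraries (-0.02, adjusted p = 0.972). Whether counting used the strand is not given in the sources used here, so reads of these pairs may not be separated.

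Per kilobase of exon, which makes levels comparable between genes, Gzmb was the highest member in Th9 libraries, at 121 ± 26.6 normalized counts per kilobase (SD, n = 3), and its range did not touch that of the next gene. Ctla4 followed at 45.9 ± 9.04, Il2ra at 38.7 ± 7.41, Tnfrsf9 at 32.5 ± 5.62, Tnfrsf18 at 24.5 ± 3.84, Il2rb at 15.8 ± 6.07, Il12rb2 at 12.7 ± 0.697, Il2rg at 11 ± 3.8 and Icos at 9.43 ± 1.61. Neighbours in this order after Gzmb overlapped in their ranges. In Th0 libraries Tnfrsf18 was the highest instead, at 19.5 ± 8.15 per kilobase, clear of Gzmb at 3.71 ± 2.81, and every other member was lower still, down to Icos at 0.0972 ± 0.168.

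Th17 against Th0 asked the same question of Th17 cells, and none of the members was called. The table with Th17 lists 6 of the 9 members, and only Tnfrsf18 and Il12rb2 had a mean of at least 10. Of the 14342 genes tested, 1.58% were called, 1.19% as higher and 0.39% as lower. Neither of the 2 members passed at an unadjusted p under 0.05. Tnfrsf18 had 18, 20 and 19 normalized counts in Th17 libraries, against 45, 22 and 24 in Th0 libraries. All Th17 libraries were below all Th0 libraries, as in 10.6% of all genes tested, with a log2 fold change of -0.58 (SE 0.30, 95% interval -1.24 to 0.09, adjusted p = 0.347). Il12rb2 had 12, 15 and 9 in Th17 libraries, against 14, 7 and 23 in Th0 libraries. These groups overlapped, the log2 fold change was -0.16 (SE 0.43, 95% interval -1.10 to 0.79, adjusted p = 0.886), and its sign turned without Th17 replicate 3 (0.02) or without Th0 replicate 3 (0.22).

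The other listed members were near the limit of detection in this table, and their groups overlapped. Gzmb had 6, 1 and 7 normalized counts in Th17 libraries, against 11, 3 and 3 in Th0 libraries. Tnfrsf9 had 2, 7 and 5 in Th17 libraries, against 6, 9 and 8 in Th0 libraries. Il2rb had 6, 1 and 1 in Th17 libraries, against 5, 1 and 2 in Th0 libraries. The ratios of their summed reads, Th17 over Th0, were 0.873 for Gzmb (95% counting interval 0.398 to 1.92), 0.635 for Tnfrsf9 (0.312 to 1.27) and 0.998 for Il2rb (0.316 to 3.23), so no difference was detectable at this depth. Ctla4 had 0, 2 and 1 in Th17 libraries, against 12, 0 and 2 in Th0 libraries, where replicate 1 holds most of the Th0 value. Its read ratio was 0.218 (0.0395 to 0.809 by counting error), which does not take the spread between libraries into account. With no filter on low values, none of the 4 was called (adjusted p 0.524 to 0.961). Il2ra, Il2rg and Icos are not listed with Th17. Every listed gene has at least 5 reads in some library, and all 17570 genes with at least 5 reads in a Th0 library are in both tables, so each of these 3 genes had at most 4 reads in any Th17 library (at most 4.29, 3.25 and 3.71 normalized counts in replicates 1, 2 and 3). Per kilobase of exon, Tnfrsf18 was the highest member in Th17 libraries, at 12.5 ± 0.656 (SD, n = 3), clear of Gzmb at 3.25 ± 2.24, which is the order seen in Th0 libraries.

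The difference between the Th9 and the Th17 comparison was not tested, because the tables were normalized separately and share their Th0 libraries. Side by side, the log2 fold change of Tnfrsf18 was 0.38 with Th9 and -0.58 with Th17, and that of Il12rb2 was 1.87 with Th9 and -0.16 with Th17.

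Most markers of T cells moved with the members. Of the 20 T cell identity genes, 15 of the 17 tested were higher with Th9 and none lower (88.2% called, against 25.2% of all genes tested). The median log2 fold change was 4.0, against -0.01 over all genes tested. The count is a description: 13 of the 17 had a mean under 10 in Th0 libraries and passed the filter only through Th9. The 20 genes summed to 1391 to 1996 normalized counts in Th9 libraries, against 97 to 206 in Th0 libraries. Cd3g, which encodes a signalling chain beside the T cell receptor, had 352, 346 and 254 in Th9 libraries, against 8, 5 and 2 in Th0 libraries (log2 fold change 5.85, adjusted p = 4.3e-07). The other CD3 chains Cd3d (3.88, adjusted p = 0.00049), Cd3e (4.0, adjusted p = 1e-05) and Cd247 (1.80, adjusted p = 0.00101) were higher too, as were Ptprc (CD45; 4.45, adjusted p = 6.9e-05), Bcl11b (4.22, adjusted p = 7.8e-06) and Themis (5.34, adjusted p = 8.3e-06). Cd4 itself, the marker of the sort, had 23, 23 and 17 in Th9 libraries, against 10, 8 and 18 in Th0 libraries, which overlap (0.82, adjusted p = 0.114). It was at 10, 9 and 18 in Th17 libraries, where Cd3g was at 0, 1 and 0. Cd5, the other tested gene of this list that was not called, had 39, 30 and 33 in Th9 libraries, against 34, 29 and 32 in Th0 libraries (0.09, adjusted p = 0.797). With Th17 the summed level of the 12 listed T cell genes was 64 to 85 in Th17 libraries, against 93 to 193 in Th0 libraries, and none of the 4 tested was called. Ptprc had 8, 7 and 1 in Th17 libraries, against 52, 25 and 7 in Th0 libraries, with overlapping libraries (-2.09, SE 0.73, adjusted p = 0.166). The part of T cell number in the members' differences was not tested.

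Some markers of lymphocytes that lack CD4 also moved with the members. Trdc, the constant region of the delta chain of gamma-delta T cells, had 145, 101 and 77 normalized counts in Th9 libraries, against 2, 3 and 0 in Th0 libraries (log2 fold change 5.52, adjusted p = 9.5e-06). Tcrg-C1 (4.09, adjusted p = 0.00012) and Tcrg-C4 (4.20, adjusted p = 0.00017), constant regions of the gamma chain, were higher, and Tcrg-C2 had 55, 32 and 28 in Th9 libraries and 0 in each Th0 library, at least 37.6-fold higher against a floor of 3 reads over the group. These 4 genes summed to 275, 196 and 149 in Th9 libraries, against 5, 4 and 1 in Th0 libraries. Sox13, a transcription factor of the same list, lay the other way, with 34, 43 and 29 in Th9 libraries, against 62, 51 and 46 in Th0 libraries, all Th9 libraries below all Th0 libraries (-0.58, adjusted p = 0.0777). In all, 4 of the 5 tested gamma-delta genes were higher and none was called lower (80% called, against 25.2% of all genes tested), with a median of 4.20. With Sox13, which makes up most of the Th0 sum, the list summed to 178 to 309 in Th9 libraries, against 47 to 67 in Th0 libraries. Of 10 genes of CD8 T and natural killer cells, 4 are listed and both tested ones were higher: Klrk1 (NKG2D), with 37, 29 and 14 in Th9 libraries, against 1, 0 and 1 in Th0 libraries (4.02, adjusted p = 0.00024), and Klrd1 (CD94; 3.69, adjusted p = 0.00042). The list summed to 42 to 80 in Th9 libraries, against 2 to 11 in Th0 libraries. Both of these genes and the 4 called gamma-delta genes had a mean under 10 in Th0 libraries and passed the filter only through Th9, so their counts are a description. The other listed genes of these cells overlapped between groups and were under the mean of 10. Cd8a was at 7, 6 and 7 in Th9 libraries, against 6, 0 and 0 in Th0 libraries. Eomes was at 8, 7 and 5 in Th9 libraries, against 2, 1 and 7 in Th0 libraries. Cd8b1 and Ncr1 are not listed. With Th17, 1 of the 8 gamma-delta genes is listed (Sox13) and none of the 2 listed CD8 T and natural killer cell genes had a mean of at least 10. Which of these cells carried the members' transcripts was not tested.

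Set against CD3 chain transcripts, some members were higher in Th9 libraries and others in Th0 libraries. The value of each member per 100 normalized counts of Cd3d, Cd3e, Cd3g and Cd247 together is a description with no test, and it rests on CD3 sums of 565, 509 and 405 in Th9 libraries, against 51, 29 and 18 in Th0 libraries. Cd247 made up the larger part of the Th0 sums, at 33, 21 and 13, but only 92, 69 and 67 of the Th9 sums. It was also at 19, 12 and 20 in Th17 libraries, where Cd3g was at 0, 1 and 0. No ratio was made without Cd247, and which ranges overlap may depend on it. Il2ra stood at 45.3, 45.8 and 43.0 in Th9 libraries, against 9.80, 13.8 and 5.56 in Th0 libraries. Gzmb stood at 34.2, 39.1 and 32.1 in Th9 libraries, against 19.6, 10.3 and 16.7 in Th0 libraries. These ranges, and those of Icos (6.37 to 6.88 in Th9 and 0 to 1.96 in Th0 libraries), did not overlap, with 9, 15 and 1 Th0 reads behind Il2ra, Gzmb and Icos. Per CD3 transcript the ranges overlapped for 4 members. Ctla4 stood at 20.6 to 22.8 in Th9 libraries, against 0 to 21.6 in Th0 libraries, and Il2rb at 10.1 to 16.5 in Th9 libraries, against 3.45 to 11.1 in Th0 libraries. Il2rg stood at 3.95 to 5.89 in Th9 libraries, against 5.56 to 10.3 in Th0 libraries, and Tnfrsf9 at 17.5 to 18.5 in Th9 libraries, against 11.8 to 38.9 in Th0 libraries. Tnfrsf18 went the other way, at 6.19 to 8.64 in Th9 libraries and 75.9 to 128 in Th0 libraries, and so did Il12rb2, at 8.85 to 11.1 in Th9 and 20.7 to 122 in Th0 libraries. Both were also detected in Th17 libraries, where Ptprc was at 8, 7 and 1: Tnfrsf18 at 18, 20 and 19, and Il12rb2 at 12, 15 and 9. How much of the level of these genes came from T cells was not tested, so the ratios cannot be read as a level per T cell. Which members overlapped depended in part on the denominator. Per 100 of Ptprc, Gzmb overlapped too, at 32.4 to 44.5 in Th9 and 12 to 50 in Th0 libraries. Per 100 of the 20 T cell identity genes together, Ctla4 did not overlap (6.25 to 6.46 in Th9 and 0 to 5.34 in Th0 libraries), nor did Il2rb (2.95 to 4.66 in Th9 and 0.847 to 2.43 in Th0 libraries). Il2ra and Icos were above, and Tnfrsf18 and Il12rb2 below, their Th0 ranges with all 3 denominators. The sum over the 9 members was 154 to 169 in Th9 libraries and 166 to 339 in Th0 libraries, a ratio of means of 0.696 ± 0.280 (SD, n = 3 each). In the table with Th17, where only Cd3g and Cd247 are listed, the sum over the 6 listed members was 210 to 354 in Th17 and 162 to 413 in Th0 libraries, a ratio of 0.999 ± 0.575. The CD3 sums there were 19, 13 and 20 in Th17 libraries, nearly all of it Cd247. Most of the member sums of 44, 46 and 42 in Th17 libraries came from Tnfrsf18 and Il12rb2. This ratio therefore cannot be read as members per T cell.

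**Figure D3:**
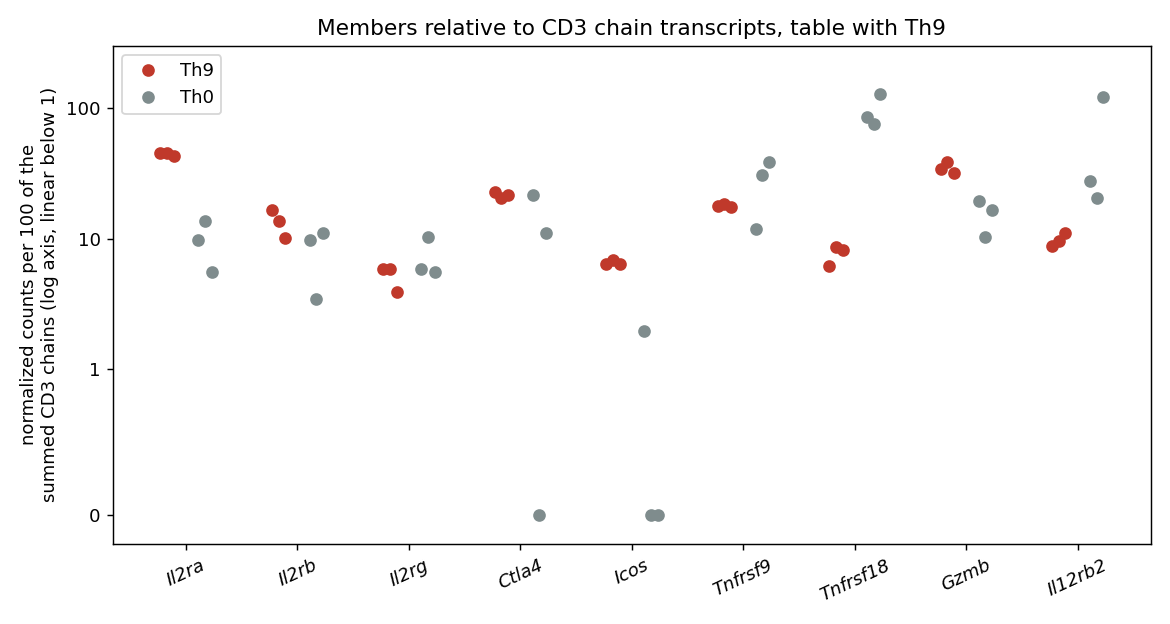
Normalized counts of each member per 100 of the summed CD3 chains (y axis, logarithmic above 1 and linear below) in the 3 Th9 and 3 Th0 libraries of one table, with 1 point per library. Il2ra, Icos and Gzmb lie higher in Th9 libraries, Tnfrsf18 lies at 6.19 to 8.64 in Th9 against 75.9 to 128 in Th0 libraries, and the Th0 points scatter most.

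The counts of related genes that follow are descriptions, to be read against the 25.2% of all tested genes called with Th9 (13.4% as higher and 11.9% as lower). Of 22 genes of common gamma chain cytokine signalling, 14 were tested, 7 were higher and 1 was lower (57.1% called, 2 of the 14 with a Th0 mean under 10), with a median log2 fold change of 0.44, against -0.01 over all genes tested. Il7r, the IL-7 receptor chain that pairs with the common gamma chain, had 103, 97 and 62 in Th9 libraries, against 8, 3 and 1 in Th0 libraries (4.37, adjusted p = 4.5e-05). Il21r (3.36, adjusted p = 6.1e-05), Il15ra, the alpha chain of the IL-15 receptor (1.11, adjusted p = 0.00073), and Socs2, an inhibitor of cytokine signalling that STAT5 induces (1.55, adjusted p = 0.00012), were higher as well. Il2, which encodes the ligand, is listed in neither table. Of 20 other costimulatory and inhibitory receptors, 6 of 12 tested were higher and none lower (50% called), with a median of 0.70, and 4 of the 12 had a Th0 mean under 10 and passed the filter only through Th9. They include Cd28, the receptor that Ctla4 opposes, with 62, 46 and 41 in Th9 libraries, against 0, 5 and 2 in Th0 libraries (4.25, adjusted p = 2.0e-04). Cd2 (4.49, adjusted p = 0.00011), Pdcd1 (PD-1; 4.09, adjusted p = 2.0e-04) and Cd96 (4.18, adjusted p = 0.00029) were the others with the smallest adjusted p.

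Of 15 ligands of these receptors, 7 were tested, 1 was higher and 1 lower, with a median of 0.24, a share of 28.6% called that is close to the share over all genes. Pvr, a ligand of Tigit and Cd96, was higher (0.56, adjusted p = 0.00112). Lgals9 was lower (-0.61, adjusted p = 0.0276), but missed the threshold when libraries were set to the same total or without 1 of 4 libraries (Th9 replicate 1 or 3, Th0 replicate 2 or 3; adjusted p 0.0563 to 0.12). Icosl, the ligand of Icos, had 63, 46 and 55 in Th9 libraries, against 57, 62 and 54 in Th0 libraries, and Tnfsf9, the ligand of Tnfrsf9, had 15, 15 and 20 in Th9 libraries, against 14, 9 and 15 in Th0 libraries. Neither passed the test (-0.08, adjusted p = 0.78, and 0.39, adjusted p = 0.437), and the sign of Icosl turned when libraries were set to the same total (0.02) or without Th9 replicate 2 (0.03). Cd80, a ligand of Cd28 and Ctla4, was at 7, 2 and 6 in Th9 libraries, against 1, 0 and 3 in Th0 libraries, under the mean of 10, and Cd86 and Tnfsf18 are not listed.

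Of 10 adaptors and kinases below the TNF receptor family, all tested with Th9, 5 were higher and 2 lower (70% called, 1 of the 10 with a Th0 mean under 10), with a median of 0.29. Traf1, an adaptor that binds Tnfrsf9 and is itself an NF-kB target, had 136, 150 and 108 in Th9 libraries, against 8, 5 and 5 in Th0 libraries (4.25, SE 0.26, adjusted p = 6.8e-07). Relb (1.34, adjusted p = 1.9e-05) and Nfkb2 (0.87, adjusted p = 5.4e-05), the subunits of the alternative NF-kB pathway, were higher, and Traf5 was lower (-0.82, adjusted p = 0.00033). With Th17, 9 of the 10 were tested and 1 was lower: Nfkb2 had 866, 884 and 885 in Th17 libraries, against 1126, 1243 and 1206 in Th0 libraries (-0.44, adjusted p = 0.015). That call was lost when libraries were set to the same total and without any 1 of the Th17 libraries or Th0 replicate 3 (adjusted p 0.0803 to 0.134). Traf1 was at 1, 1 and 2 in Th17 libraries, against 8, 6 and 5 in Th0 libraries, under the mean of 10.

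Of 18 other genes of cytotoxic granules, 8 were tested with Th9, 3 were higher and 2 lower (62.5% called, 2 of the 8 with a Th0 mean under 10), with a median of 0.22. Srgn, the granule proteoglycan serglycin that binds granzymes, had 125, 115 and 81 in Th9 libraries, against 14, 4 and 2 in Th0 libraries (4.13, adjusted p = 7.1e-05). Serpinb6b, a serine protease inhibitor (1.73, adjusted p = 0.00256), and Ctsc, the protease that activates granzymes (0.59, adjusted p = 0.0107; 0.0586 without Th9 replicate 1), were higher. Lamp1, a lysosomal membrane protein, was lower (-0.37, adjusted p = 0.0242), but missed the threshold when libraries were set to the same total, without any 1 of the Th9 libraries or without Th0 replicate 2 (adjusted p 0.0657 to 0.209). Gzma was at 11, 6 and 7 in Th9 libraries and 0 in each Th0 library, and Prf1 (perforin) at 1, 2 and 2 in Th9 libraries, against 5, 5 and 2 in Th0 libraries, both under the mean of 10 and chosen after their values were seen (adjusted p = 0.00155 and 0.323 with no filter).

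Of 14 other genes of IL-12 signalling and Th1 cells, 7 were tested with Th9, 4 were higher and none lower (57.1% called, 2 of the 7 with a Th0 mean under 10), with a median of 0.35. Stat4, the transcription factor below the IL-12 receptor, had 58, 39 and 41 in Th9 libraries, against 5, 2 and 0 in Th0 libraries (4.14, adjusted p = 0.00025). Il18rap (0.55, adjusted p = 5.0e-04) and Il18r1 (1.66, adjusted p = 0.00881), chains of the IL-18 receptor, were higher. Il18rap had 2724, 2447 and 2616 in Th9 libraries, against 1888, 1738 and 1675 in Th0 libraries. It was also at 1844, 1927 and 1916 in Th17 libraries, where Ptprc was at 8, 7 and 1. How much of the level of Il18rap came from T cells was not tested. Il18r1 missed the threshold without Th9 replicate 1 or 2 (adjusted p 0.0686 and 0.0526). Jak2 was higher too (0.35, adjusted p = 0.0379), but missed the threshold without any 1 of the Th9 libraries (0.105 to 0.127). Il12rb1, the other chain of the IL-12 receptor, had 41, 42 and 49 in Th9 libraries, against 34, 40 and 44 in Th0 libraries, and did not pass the test (0.16, adjusted p = 0.613), unlike Il12rb2. Whether the 2 chains differ from each other in their change was not tested. Ifng and Tbx21 are not listed.

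Because Il2ra, Ctla4, Icos and Tnfrsf18 are also genes of regulatory T cells, 7 such genes were set beside them. Of the 5 tested with Th9, 1 was higher and 1 lower (40% called), with a median of 0.19. Foxp3, the defining factor of regulatory T cells, had 13, 15 and 24 in Th9 libraries, against 15, 8 and 11 in Th0 libraries, which overlap (0.57, SE 0.37, adjusted p = 0.294). Ikzf2 (Helios) was higher, at 546, 440 and 451 in Th9 libraries, against 223, 216 and 190 in Th0 libraries (1.18, adjusted p = 1.9e-05). It was also at 213, 252 and 242 in Th17 libraries, where Ptprc was at 8, 7 and 1. How much of the level of Ikzf2 came from T cells was not tested. Of the genes under the mean of 10, Ikzf4 (Eos) had 10, 8 and 7 in Th9 libraries, against 1, 5 and 1 in Th0 libraries, and Ccr8 had 8, 7 and 2 in Th9 libraries and 0 in each Th0 library. With no filter on low values both passed the test (adjusted p = 0.0434 and 0.0131). Nrp1, which other cell types also make, was lower (-0.43, adjusted p = 0.0398), but missed the threshold when libraries were set to the same total and without any 1 library other than Th0 replicate 1 (adjusted p 0.0959 to 0.192). With Th17, none of the tested genes of regulatory T cells, gamma chain signalling, costimulatory and inhibitory receptors, their ligands, cytotoxic granules or IL-12 signalling was called (4, 12, 8, 7, 6 and 5 tested).

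**Figure D4:**
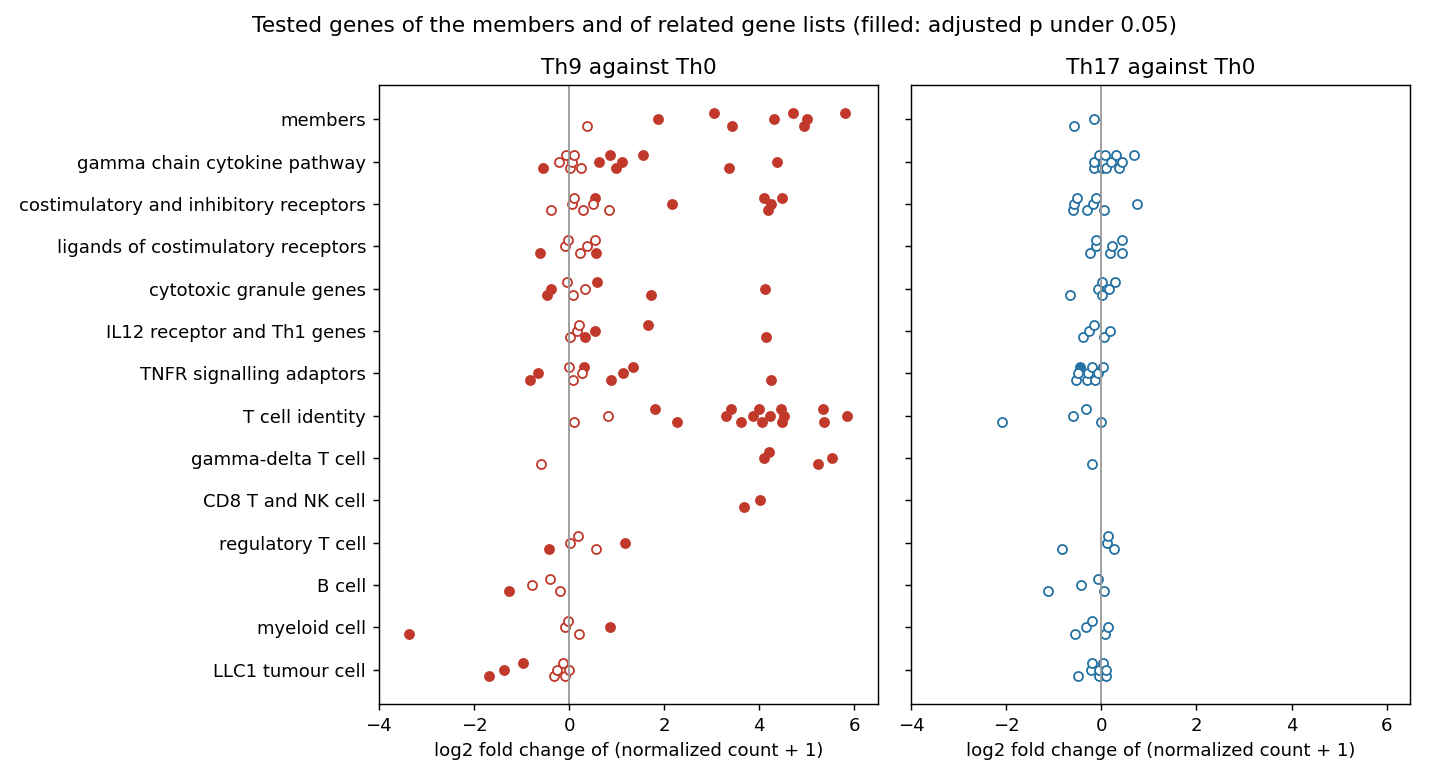
Log2 fold change against Th0 (x axis) of every tested gene of the 9 members and of each gene list, for Th9 on the left and Th17 on the right. Filled points had an adjusted p under 0.05. With Th9 the T cell identity and gamma-delta T cell genes reach the same range as the members, with medians of 4.0 and 4.20, and with Th17 a single gene, Nfkb2, is filled.

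Markers of other cells were set beside the members, as descriptions to be read against the 25.2% of all tested genes called with Th9. Genes of B cells summed to 68 to 83 normalized counts in Th9 libraries, against 95 to 168 in Th0 libraries. Of these, 1 of 4 tested was lower (Ebf1, -1.26, adjusted p = 0.00707), a share of 25% that is close to the share over all genes. Myeloid genes summed to 289 to 331 in Th9 libraries, against 239 to 413 in Th0 libraries, and 40% of the 5 tested were called. Cd14 was higher (0.86, adjusted p = 0.0135, and 0.0537 to 0.0716 without Th9 replicate 1 or 2 or without Th0 replicate 3) and Lyz2 was lower (-3.36, adjusted p = 0.00163). Of the 8 LLC1 genes, 3 were lower with Th9 (37.5% called): Krt8 (-0.97, adjusted p = 0.00032), Col3a1 (-1.37, adjusted p = 2.6e-06) and Col1a1 (-1.68, adjusted p = 0.00554). None of the B cell, myeloid or LLC1 genes was called with Th17 (4, 5 and 8 tested).

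Over the 6 libraries of the table with Th9, the genes outside the 9 whose log2 values were most like the mean of the members were Pik3c2b (Pearson r = 0.9989), Satb1 (0.9989), Lef1 (0.9982), Vegfa (0.9977) and Syt17 (0.9975), where a mean of 50 or more was required. Satb1, a chromatin organizer, had 300, 227 and 174 normalized counts in Th9 libraries, against 14, 6 and 7 in Th0 libraries. Lef1, a transcription factor of the Wnt pathway and of T cells, had 199, 183 and 132 in Th9 libraries, against 24, 15 and 17 in Th0 libraries. Vegfa, a growth factor of blood vessels, had 3222, 3112 and 2995 in Th9 libraries, against 1976, 1792 and 1830 in Th0 libraries. Such an r mostly reflects the gap between 2 groups of 3 libraries, which share library, depth and scaling, and it is given with no p.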

How the data were processed

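RNA of 9 libraries was measured. The authors deposited a whole-number score for each gene and library, a read count scaled by a size factor and then rounded, in 2 tables normalized separately. The values bear this out: Th0 libraries differ between tables by 1 factor each (1.0285, 1.0216 and 1.0262), and the regular steps in each column gave its size factor, hence approximate reads (a single read number was possible for 63.68% to 100% of values, by library). Per the submitters' processing notes, STAR 2.4.0a, featureCounts 1.4.5-p1, DESeq2, mm10 and GRCm38 were used, with no roles given. Coordinates are those of the tables, and exon lengths are from GENCODE M21. No column of per-sample values was left unused (0).

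Within a table, Th9 or Th17 libraries were compared with Th0 libraries by limma-trend (limma 3.58.1, R 4.3.3) on log2(value + 1). Genes needed a mean of 10 or more, with group as the only term, Benjamini-Hochberg adjustment over all tested genes and calls at adjusted p under 0.05. The fit was tested on simulated data. No count test was run, as the values are not counts. Fold of means and counting intervals (95%, exact) of read ratios are descriptions, and cover counting error only. Alternatives were other pseudocounts, filters and scalings, array weights, a replicate block and leaving out each library.

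Named are all 9 members, up to 4 called genes per list with the smallest adjusted p, a fixed set of T cell, ligand and signalling genes, and the 5 genes most like the members in the table with Th9 (those of the table with Th17 are not reported here). Tbx21, Cd8a, Cd8b1, Eomes, Ncr1, Sox13, Ikzf4, Ccr8, Gzma, Prf1, Vim, Krt18, the overlapping genes and the genes given in the closing observations were named outside that rule, after values were seen. The members and lists were chosen with earlier results of these data known.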

Additional observations from a re-analysis of the deposited data

How the results depend on the processing

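In Th9 against Th0, the 8 called members kept their calls under every alternative that tested them. The count of members called was 3 where a mean of at least 50 was required (3 tested, so fewer by construction) and 8 to 9 when leaving out 1 library. Genes called over the whole table numbered 3653, against 6628 with array weights and 1853 to 5336 when leaving out 1 library. In Th17 against Th0 no member was called under any alternative run. A mean of at least 50 left none to test. There the whole-table count of 226 was 139 with the same total per library, 447 where mt-Rnr1, mt-Rnr2 and Gm26917 were left out of that total, 3361 with array weights and 16 to 2352 when leaving out 1 library, the highest without Th0 replicate 1. The cause was not tested. The same total shifted the median of all genes by 0.11 in Th9 and 0.02 in Th17. It split the calls into 2252 higher and 794 lower, against 1937 and 1716, in Th9, and into 119 and 20, against 170 and 56, in Th17.

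Replicate numbers are not shown to pair libraries: deviations of same-numbered libraries correlated at 0.20, -0.02 and 0.24 with Th9 and -0.06, -0.12 and 0.05 with Th17. Those of libraries with unlike numbers correlated at -0.23 to 0.11 with Th9 and -0.05 to 0.12 with Th17. With Th9, the values of replicates 1 and 3 thus lay above that range. The replicate block gave 4076 calls in Th9 and 262 in Th17, and changed the call of 1 named gene, Ptprc in Th17 (-2.09, adjusted p = 0.0219). The ratio of members to CD3 chains was 0.367 (Th9) and 4.39 (Th17) with Ptprc as denominator, and 0.608 to 0.901 and 0.832 to 1.38 when leaving out 1 library, an alternative added after seeing the data. Signs turned for uncalled genes only: Icosl in Th9 (0.02 with the same total, -0.19 to 0.03 when leaving out 1 library), and in Th17 Il12rb2 (-0.57 to 0.22), Cd247 (0.06 with array weights, -0.66 to 0.00), Cd4 (0.00 with the same total, 0.01 leaving out those 3 genes, -0.30 to 0.30) and Foxp3 (-0.01 to 0.47), each range over leaving out 1 library. Of the other values of single genes, 840 stayed on their side of the threshold, 30 lost a call and 3 gained one. Depth limits the genes with few reads in Th0 and Th17 libraries, where 1 read more or less moves a ratio.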

Other observations

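Of the genes below the mean of 10, a few chosen after their values were seen are given here, with limma's adjusted p where no filter on low values was used. Cd6, a T cell surface receptor, had 30, 17 and 12 normalized counts in Th9 libraries and 0 in each Th0 library (adjusted p = 6.21e-05). Slamf1 had 6, 5 and 5 in Th9 libraries, against 0, 1 and 0 in Th0 libraries (adjusted p = 0.0142), and Btla, an inhibitory receptor, had 13, 7 and 7 in Th9 libraries, against 3, 2 and 0 in Th0 libraries (adjusted p = 0.0246). The chemokine receptor Cxcr3 overlapped between groups, at 5, 0 and 2 in Th9 libraries, against 1, 0 and 2 in Th0 libraries. Among granzymes, Gzme ran the other way, at 4, 0 and 3 in Th9 libraries, against 6, 11 and 11 in Th0 libraries (adjusted p = 0.0447), while in the table with Th17 it was at 10, 11 and 10 in Th17 libraries, against 6, 11 and 11 in Th0 libraries. Gzme stands in a cluster of near-identical granzyme genes, so its reads are uncertain.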
